A study of Homo sapiens with 6 samples.

Results

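The Notch receptors NOTCH1, NOTCH2 and NOTCH3, the ligands JAG1, JAG2, DLL1 and DLL4 and the target genes HES1, HEY1 and NRARP were examined, chosen by their symbols as 10 of the 20811 genes in the table. HuCCT1 is a human intrahepatic cholangiocarcinoma (iCCA) cell line. It was transduced either with a human THY1-CMV-GFP lentivirus, which brings in THY1, the gene that encodes CD90 (HuCCT1/CD90+), or with the Lenti-CMV-GFP-2A-Puro-Blank lentivirus (HuCCT1/CD90-), in each case at MOI 40, and both lines were grown in RPMI with serum. There were 3 libraries of each line, and no source used here says that they came from separate cultures, so p-values measure only the spread between these libraries. No second pair of transduced lines was analysed here, so an effect of CD90 and a difference between these derived lines cannot be told apart. The comparison asks how the genes of this pathway differed between the lines, since the study's introduction refers to a NOTCH1/HES1/CD90 axis in iCCA.

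Notch signaling passes between touching cells. A Jagged or Delta-like ligand on one cell pulls on a Notch receptor on its neighbour, which exposes the receptor to ADAM proteases and then to γ-secretase. The released intracellular domain enters the nucleus, binds the DNA-binding protein RBPJ and a Mastermind coactivator, and switches on targets such as the repressors HES1 and HEY1 and the feedback inhibitor NRARP. In the liver, Jagged1 and NOTCH2 are known for their part in bile duct formation, and loss of either gives too few bile ducts in Alagille syndrome.

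Each gene was read over 1 amplicon of the Ion AmpliSeq Transcriptome panel. Values are RPM, reads that the authors scaled to the same total in every library. Since amplicons differ in efficiency, levels were compared only within a gene. The libraries held 8587634 to 10551516 reads on genes, and 3 reads, taken as the detection floor, corresponded to 0.284 to 0.349 RPM. This floor covers counting error only. THY1 had 0, 1 and 0 reads in HuCCT1/CD90- and 435, 445 and 680 reads in HuCCT1/CD90+, as the labels state. Of the biliary markers, KRT7 had 3150 to 3796 RPM in HuCCT1/CD90-, against 3468 to 4026 RPM in HuCCT1/CD90+, KRT19 had 3042 to 3462 against 3900 to 4291 RPM, and EPCAM had 24.9 to 32.1 against 316 to 416 RPM. Of the fibroblast markers COL1A1, COL1A2 and PDGFRB, 2 were lower (summed 17.8 to 21.4 against 14.6 to 15.1 RPM), and of the leukocyte markers PTPRC, CD3E and CD68 only CD68 was above the floor, and it was higher (50.8 ± 4.50 against 92.2 ± 8.39 RPM, SD, n = 3 each). Of the hepatocyte markers, ALB and TTR were at or under it in both lines and APOA1 was lower (summed 1.75 to 4.28 against 0 to 0.429 RPM).

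NOTCH1, HEY1 and NRARP were lower, and JAG1 and DLL4 higher, when HuCCT1/CD90+ was set against HuCCT1/CD90-. These results are from a fit without a block on the replicate number, and with that block JAG1 and DLL4 did not pass. A gene was called where limma on log2(RPM + 1) gave a Benjamini-Hochberg adjusted p up to 0.05 over all genes. NOTCH3 also passed, but with at most 3 reads in any library. Thus 6 of the 10 genes passed, against 18.9% of all genes in the table. By direction, 3 were higher and 3 lower, against 9.41% and 9.52% of all genes. Leaving out NOTCH3 and DLL1, which were at or under the floor in both lines, 5 of 8 passed, against 27.4% of the genes above the floor in at least one line. Of these 5, DLL4 and HEY1 were above the floor only in the line where they were higher, so for them this filter was not independent of the difference. JAG2, NOTCH2, HES1 and DLL1 did not pass. At the thresholds of the study, a 1.5-fold change (taken here on the log2(RPM + 1) scale) together with p up to 0.05 before adjustment, 4 of the 10 genes passed, against 20.1% of all genes, namely NOTCH1, DLL4, HEY1 and NRARP. JAG2 lay at the limit, with a ratio of mean RPM of 1.501, a log2(RPM + 1) difference of 0.56 and an unadjusted limma p of 0.019. The 3 values of each line did not overlap for 7 of the 10 genes, against 35% of all genes. These 7 include NOTCH3, and the 35% is over all 20811 genes, of which 6713 were at or under the floor in both lines. In a fit that blocked on the replicate number, 3 of the 10 passed, against 13.1% of all genes. These 3 were the lower genes NOTCH1, HEY1 and NRARP, against 6.4% of all genes passing as lower in that fit. As higher, 0 of the 10 passed, against 6.72% of all genes, so the calls of JAG1, DLL4 and NOTCH3 were lost. Leaving out 1 library at a time left 1 to 4 calls among the 10 genes, with 1 without HuCCT1/CD90- replicate 3, while the calls over all 20811 genes fell from 3939 to between 2197 and 2932. On recovered reads 5 of the 7 genes tested passed with edgeR, against 44.4% of the genes it tested, and 6 of 9 with DESeq2, against 37%. In these bulk libraries, fewer cells that express a gene and less RNA per cell cannot be told apart.

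**Figure D1:**
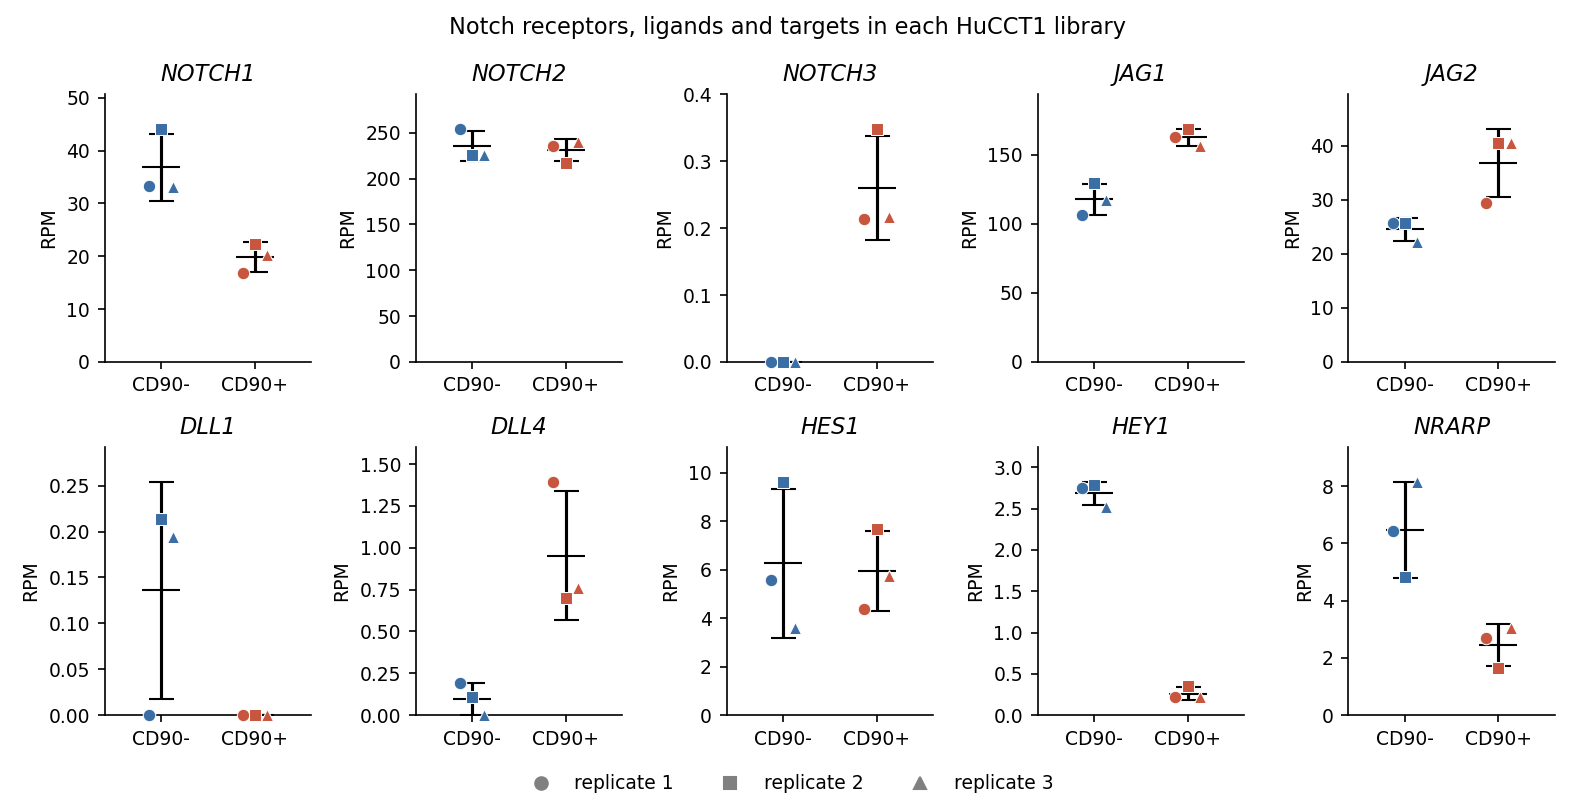
RPM (y axis, linear from 0, a separate scale for each gene) of the 10 Notch genes in the 3 libraries of HuCCT1/CD90- (blue) and HuCCT1/CD90+ (red), with bars for mean ± SD and a symbol for each replicate number. NOTCH1, HEY1 and NRARP lie lower and JAG1, JAG2 and DLL4 higher in every HuCCT1/CD90+ library, whereas NOTCH2 and HES1 overlap and NOTCH3 and DLL1 stay below 0.35 RPM.

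Of the receptors, NOTCH1, the receptor most often altered in cancer, lies on the minus strand of chromosome 9, between 136494433 and 136545786 (GRCh38, GENCODE 29). It had 33.3, 44.2 and 33.1 RPM in HuCCT1/CD90- and 16.8, 22.4 and 20.3 RPM in HuCCT1/CD90+. Every HuCCT1/CD90+ library lay under every HuCCT1/CD90- library. The means were 36.8 ± 6.36 and 19.8 ± 2.79 RPM (SD, n = 3 each), a 1.86-fold lower level in HuCCT1/CD90+, from 157 to 413 reads per library. This was a log2 difference of -0.86 with a standard error of 0.17 and an adjusted p of 0.033 in limma, or 0.041 in the blocked fit. Without any 1 library the adjusted p of NOTCH1 lay between 0.063 and 0.10, with log2 fold changes from -0.94 to -0.72.

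NOTCH2, the receptor known for bile duct formation, was read at 255, 226 and 226 RPM in HuCCT1/CD90- and at 235, 218 and 240 RPM in HuCCT1/CD90+. The lines overlapped. The log2 fold change was -0.03 with a 95% interval from -0.21 to 0.16 (adjusted p = 0.98, limma), so a 1.5-fold difference in either direction lay outside the interval. The value may be uncertain, since NOTCH2 has near-identical partial copies and the position of its amplicon is not given. Whether reads of a copy were counted for NOTCH2 was not tested. NOTCH2NL, named here after its values were seen, has an amplicon of its own with 23.4 to 29.9 RPM in HuCCT1/CD90-, against 27.3 to 33.4 RPM in HuCCT1/CD90+ (adjusted p = 0.46, limma). NOTCH2 lies on chromosome 1, where its 50 nearest genes averaging 10 RPM or more had a median log2 fold change of -0.29. With that median removed, the log2 fold change of NOTCH2 was 0.26 (adjusted p = 0.077).

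NOTCH3, a receptor best known from vascular smooth muscle, had 0 reads in each HuCCT1/CD90- library against 2, 3 and 2 reads in HuCCT1/CD90+. Both lines were at or under the floor, so no fold is given. Its adjusted p was 0.015 in limma, 0.063 with the replicate block and 0.14 with DESeq2 on recovered reads, and it was too low to be tested in edgeR. Without any 1 of the HuCCT1/CD90- libraries the adjusted p of NOTCH3 was 0.055 to 0.061. NOTCH4, the remaining receptor and one known from endothelium, had 0 reads in all 6 libraries.

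Of the ligands, JAG1, the Jagged ligand known for bile duct formation, lies on chromosome 20 from 10637684 to 10673999 on the minus strand (GRCh38, GENCODE 29). It had 107, 129 and 117 RPM in HuCCT1/CD90- and 163, 169 and 156 RPM in HuCCT1/CD90+. The lowest HuCCT1/CD90+ library exceeded the highest HuCCT1/CD90- library. The means were 118 ± 11.3 and 163 ± 6.35 RPM (SD, n = 3 each), or 1.38-fold higher in HuCCT1/CD90+, from 1125 to 1518 reads per library. On the log2 scale JAG1 was higher by 0.47 (standard error 0.08, adjusted p = 0.025 in limma), whereas with the replicate block the adjusted p of JAG1 was 0.062. Leaving out HuCCT1/CD90- replicate 3 or any HuCCT1/CD90+ library also ended the call, with the highest adjusted p at 0.087.

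JAG2, the other Jagged ligand, had 25.7, 25.8 and 22.1 RPM in HuCCT1/CD90- and 29.5, 40.5 and 40.5 RPM in HuCCT1/CD90+. The lines did not overlap, but HuCCT1/CD90+ replicate 1 lay closer to HuCCT1/CD90- than the others did. JAG2 had a log2 fold change of 0.56 with a 95% interval from 0.14 to 0.97 (adjusted p = 0.082, limma). On recovered reads JAG2 passed with edgeR (adjusted p = 0.013) and DESeq2 (adjusted p = 0.0086), and it passed in limma without HuCCT1/CD90+ replicate 1 (adjusted p = 0.027) or among only the genes with a mean of 1 RPM or more (adjusted p = 0.022).

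DLL4, a Delta-like ligand known from endothelial sprouting, had 2, 1 and 0 reads in HuCCT1/CD90- and 13, 6 and 7 reads in HuCCT1/CD90+, or up to 0.190 RPM against 0.699 to 1.39 RPM. Each HuCCT1/CD90+ library held more than each HuCCT1/CD90- library. Over the pooled reads of each line, 26 against 3, the level was 9.65-fold higher in HuCCT1/CD90+ (exact 95% interval from 2.96 to 49.8, counting error only). The adjusted p was 0.036 in limma, 0.019 with DESeq2 and 0.056 with the replicate block. Of the 6 libraries, only the omission of HuCCT1/CD90+ replicate 1 kept the call of DLL4, and the adjusted p reached 0.11 without HuCCT1/CD90- replicate 3.

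DLL1, another Delta-like ligand, had 0, 2 and 2 reads in HuCCT1/CD90- and 0 in each HuCCT1/CD90+ library. No difference was detected for DLL1 (adjusted p = 0.26, limma). Without HuCCT1/CD90- replicate 1 its adjusted p was 0.0032, on values that were still at or under the floor in both lines. Markers of endothelium, the cell type that DLL4 and NOTCH4 are known from, were read beside the ligands. PECAM1, CDH5, VWF and KDR summed to 14.5 to 23.2 RPM in HuCCT1/CD90-, against 0.643 to 1.63 RPM in HuCCT1/CD90+. KDR was at or under the floor in both lines and VWF in HuCCT1/CD90-, and only CDH5 of the 4 passed the test, being lower in HuCCT1/CD90+. The part of these markers in the Notch results was not tested.

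**Figure D2:**
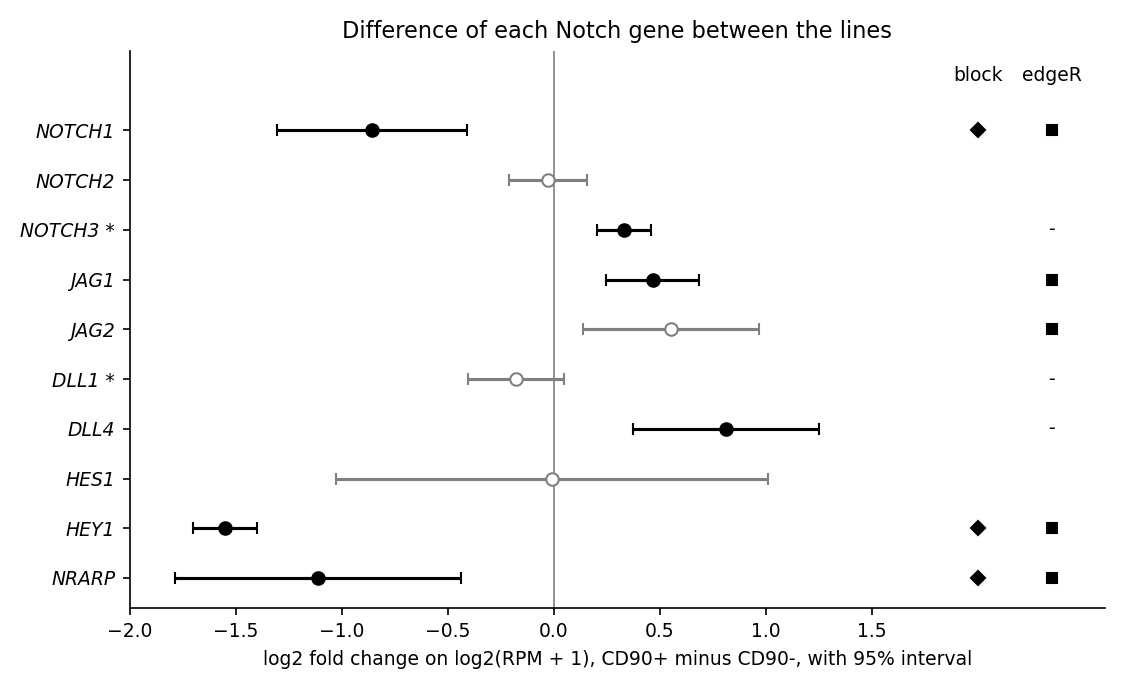
Log2 fold change (x axis, log2(RPM + 1) scale, HuCCT1/CD90+ minus HuCCT1/CD90-) of each Notch gene with its 95% interval from limma; filled black points passed an adjusted p of 0.05 and open grey points did not. An asterisk marks genes at or under the floor in both lines, a diamond or square on the right marks a gene that passed with the replicate block or with edgeR, and a dash marks a gene too low for edgeR; NOTCH1, HEY1 and NRARP carry both marks.

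Of the target genes, HEY1, a basic helix-loop-helix repressor switched on by Notch, had 2.75, 2.78 and 2.52 RPM in HuCCT1/CD90- and 0.214, 0.349 and 0.217 RPM in HuCCT1/CD90+. The lines were far apart relative to the spread within them. These values rest on 29, 26 and 26 reads against 2, 3 and 2 reads, so HuCCT1/CD90+ was at or under the floor. Over the pooled reads, 81 against 7, the level was 10.4-fold higher in HuCCT1/CD90- (exact 95% interval from 4.82 to 26.7, counting error only). On the log2 scale this was -1.55, with a standard error of 0.06 and an adjusted p of 0.00055 in limma, which understates the change of so weakly expressed a gene. HEY1 passed in all 16 alternatives, with 0.014 as its highest adjusted p, in the fit with the replicate block.

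NRARP, a short ankyrin-repeat protein that Notch induces and that in turn restrains the receptor's intracellular domain, lies on chromosome 9 from 137300482 to 137302251 on the minus strand (GRCh38, GENCODE 29). It had 6.44, 4.82 and 8.15 RPM in HuCCT1/CD90- and 2.68, 1.63 and 3.04 RPM in HuCCT1/CD90+. All HuCCT1/CD90+ libraries lay under all HuCCT1/CD90- libraries, with replicate 2 the lowest in both lines. The means were 6.47 ± 1.67 and 2.45 ± 0.732 RPM (SD, n = 3 each), a 2.64-fold lower level, from 14 to 84 reads per library. The log2 fold change was -1.11 (standard error 0.25) with an adjusted p of 0.049 in limma, just past the threshold, against 0.019 with the replicate block and 0.0011 with edgeR. Without any 1 library the adjusted p of NRARP lay between 0.065 and 0.13. It was also 0.050 to 0.069 with either other pseudocount, quantile normalization, trend and robust settings or the neighbours' change removed, and NRARP did not pass in these 5 settings.

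HES1, the classical Notch target and a repressor of differentiation genes, lies on chromosome 3 from 194136145 to 194138732 on the plus strand (GRCh38, GENCODE 29). It had 5.59, 9.63 and 3.59 RPM in HuCCT1/CD90- and 4.39, 7.68 and 5.75 RPM in HuCCT1/CD90+. Replicate 2 was the highest in both lines, and the lines overlapped. The log2 fold change was -0.01 with a 95% interval from -1.03 to 1.01 (adjusted p = 1.00, limma), an interval that also contains -0.86, the value of NOTCH1. For the 50 nearest genes averaging 10 RPM or more, the median log2 fold change was 0.66. With that median removed, the value of HES1 was -0.55 on the log2 scale, and its adjusted p was 0.46.

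The promoters of HES1 and NRARP are shown because both are known Notch targets and RBPJ, through which Notch acts, binds the letters TGGGAA. Both are the 250 bases before the RefSeq start of the gene on GRCh38.p14, read 5′ to 3′ on the strand of the gene, with each TGGGAA on either strand in capitals. The region of HES1 is chr3:194135898-194136147 on the plus strand and that of NRARP is chr9:137302272-137302521 on the minus strand.
HES1: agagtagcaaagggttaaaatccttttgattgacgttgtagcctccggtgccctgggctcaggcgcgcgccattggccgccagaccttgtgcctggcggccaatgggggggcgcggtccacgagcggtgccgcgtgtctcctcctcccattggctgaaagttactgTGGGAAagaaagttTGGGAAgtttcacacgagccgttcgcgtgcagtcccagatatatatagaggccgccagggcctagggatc
NRARP: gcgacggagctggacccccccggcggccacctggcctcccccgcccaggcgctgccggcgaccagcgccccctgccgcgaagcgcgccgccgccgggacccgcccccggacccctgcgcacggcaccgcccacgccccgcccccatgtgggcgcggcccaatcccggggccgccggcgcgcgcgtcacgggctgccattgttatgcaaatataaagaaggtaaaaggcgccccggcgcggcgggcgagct
The HES1 region held 2 matches, from -84 to -79 and from -70 to -65, where -1 is the base before the start, and the NRARP region held none. Of 35116 promoter regions of the same length, 20.8% held at least 1 match and 2.9% held at least 2. The HES1 region also held 3 matches to CACNAG, the N box that HES repressors bind and through which HES1 is known to repress itself, none of them overlapping a TGGGAA. At least 1 N box was found in 32% of all regions. Sequences were matched for 8 of the 10 genes, all but DLL1 and HEY1, and among the other 6 no TGGGAA was found in the window and an N box only in NOTCH3. A match describes letters only, and its absence here says nothing about binding elsewhere.

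Beyond these 10 genes, 66 further genes of the pathway were listed by role. Of these, 8 passed as higher and 8 as lower in HuCCT1/CD90+ (limma) and 50 did not pass, so that 16 of 66 passed against 18.9% of all genes. All 16 lay above the floor in at least 1 line, or 16 of 56, against 27.4% of all genes above it. Of the 16, NEURL and TLE2 were above it only in the line where they were higher. The counts by role below are set against all genes, those at the floor included. With the replicate block 6 of the 66 were higher and 5 lower, against 6.72% and 6.4% of all genes. The median log2 fold change was 0 over the 66 genes and 0 over all genes, or -0.06 over the 56 of them above the floor and -0.01 over all genes above it.

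Of 7 genes that mature or glycosylate the receptor, LFNG, a Fringe enzyme that extends sugars on Notch and alters which ligands it favours, passed in limma, or 1 of 7 against 18.9% of all genes. It fell from 26.1 ± 2.51 to 15.4 ± 0.293 RPM (SD, n = 3 each), with an adjusted p of 0.0070 in limma and 0.051 in the blocked fit. Among 8 genes of receptor cleavage, NCSTN and ADAM10 passed, in opposite directions, or 2 of 8 against 18.9% of all genes. NCSTN, the nicastrin subunit of γ-secretase, had 406, 343 and 385 RPM in HuCCT1/CD90- and 184, 178 and 187 RPM in HuCCT1/CD90+. It was thus 2.07-fold lower, without overlap (log2 fold change -1.04, standard error 0.07, adjusted p = 0.0022, limma), and passed in all 6 fits without a library. Its chromosome 1 neighbours had a median log2 fold change of -0.33, and with this removed the adjusted p of NCSTN was 0.0063. ADAM10, the protease that cuts the ligand-bound receptor first, rose from 135 ± 11.3 to 190 ± 11.0 RPM (adjusted p = 0.022, limma), but up to 0.084 without HuCCT1/CD90- replicate 1 or HuCCT1/CD90+ replicate 1 or 3. PSEN2, APH1A, APH1B, PSENEN and ADAM17 did not pass in limma, and APH1B passed with the replicate block (adjusted p = 0.039). With the neighbours' median change removed, APH1A and APH1B passed (adjusted p = 0.038 and 0.046, limma).

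Of 15 genes of endocytosis and ubiquitin ligation, 5 were higher and 2 lower, against 9.41% and 9.52% of all genes. With the replicate block 1 of the 15 was higher and 1 lower, against 6.72% and 6.4% of all genes. The Deltex ligases DTX2, DTX3L and DTX4 rose, with log2 fold changes of 1.06, 1.02 and 0.98 and adjusted p-values of 0.022, 0.011 and 0.023 (limma). DTX3 of the same family did not pass (log2 fold change -0.35, adjusted p = 0.35, limma), and DTX1 had 0 reads. FBXW7, which marks the Notch intracellular domain for degradation, rose from 7.46 ± 1.38 to 15.6 ± 3.78 RPM (SD, n = 3 each; adjusted p = 0.049, limma). NUMB, an adaptor that restrains Notch, was also higher, and its relative NUMBL and the ligase gene NEURL were lower, the last from 7 to 11 reads against 0 or 1 (these 3 named after their values were seen). With the replicate block DTX3L passed (adjusted p = 0.033) and DTX2, DTX4 and FBXW7 did not (0.088, 0.051 and 0.069). NUMB and NEURL did not pass in that fit either (adjusted p = 0.091 and 0.053), and NUMB passed in 2 of the 6 fits without a library. The neighbours of DTX2, DTX3L and FBXW7 had median log2 fold changes of 0.65, 0.60 and 0.33, and with these removed the adjusted p-values were 0.21, 0.10 and 0.13. NUMB did not pass in that setting either (adjusted p = 0.077).

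Of 20 genes of the nuclear complex, 1 was higher and 4 lower, or 5 of 20 against 18.9% of all genes, while RBPJ, MAML1, MAML2 and MAML3 did not pass. TLE4, a Groucho corepressor that HES proteins recruit, had 33.8, 35.4 and 42.9 RPM in HuCCT1/CD90- and 1.93, 2.56 and 2.82 RPM in HuCCT1/CD90+. This 15.3-fold lower level (log2 fold change -3.48, standard error 0.15, adjusted p = 0.00077, limma) was the widest difference of the 66 genes, and it passed in the fit with the replicate block (adjusted p = 0.012). TLE3, of the same family, fell from 51.4 ± 7.10 to 30.1 ± 2.26 RPM, and the acetyltransferase KAT2B from 13.7 ± 2.25 to 7.39 ± 0.988 RPM (adjusted p = 0.021 and 0.030, limma). Of the 6 fits without a library, TLE3 passed in 2 and KAT2B in 1. KAT2A, the paralogous acetyltransferase, was at the threshold (adjusted p = 0.0499 in limma, 0.11 in the blocked fit and 0.063 with the neighbours' change removed). The gene that was higher, TLE2, named after its values were seen, had 0 or 1 read in HuCCT1/CD90- and 4 to 7 in HuCCT1/CD90+.

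Of 12 further HES and HEY genes and other targets, 1 was higher and none lower in limma, against 18.9% of all genes called in either direction. In edgeR 3 were higher and none lower of the 6 tested, against 44.4% of all genes tested. CCND1, which encodes cyclin D1, rose from 438 ± 65.6 to 948 ± 1.80 RPM (SD, n = 3 each; log2 fold change 1.12, standard error 0.12, adjusted p = 0.0067, limma). HES7, HEY2, HEYL and DTX1, the last also counted among the ligases, had 0 reads in all 6 libraries, and HES3 and HES5 did not pass. HES2, HES4 and HES6 did not pass either, with log2 fold changes of -0.39, 0.27 and 0.52, though HES4 passed with the neighbours' change removed (adjusted p = 0.038, limma). SOX9 and MYC had log2 fold changes of 0.94 and 0.57, with adjusted p-values of 0.16 and 0.086 in limma and 0.0031 and 0.0060 in edgeR, and MYC passed with the replicate block (adjusted p = 0.037). Of 4 further ligands, DLL3, DLK1 and DLK2 had 0 reads in all libraries. DNER had 17.7, 43.3 and 40.8 RPM in HuCCT1/CD90- and 16.1, 18.4 and 20.1 RPM in HuCCT1/CD90+ (adjusted p = 0.28 in limma and 0.0065 in edgeR), the low HuCCT1/CD90- value being that of replicate 1.

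**Figure D3:**
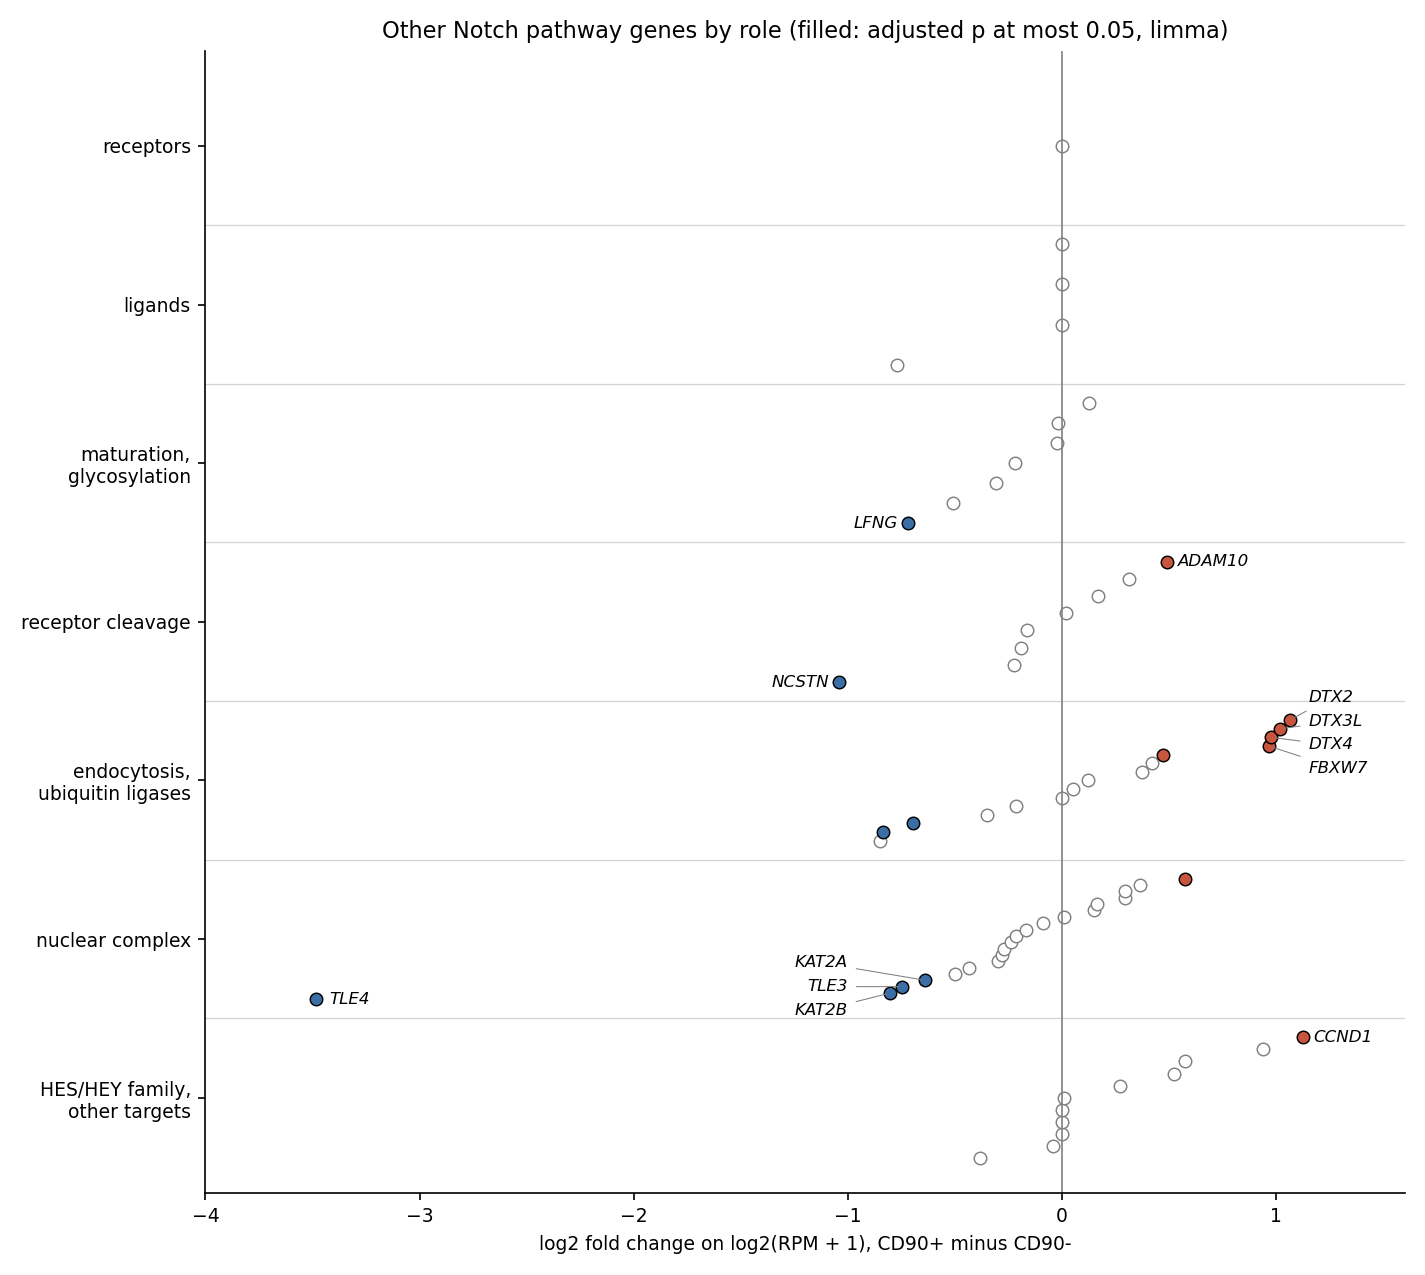
Log2 fold change (x axis, log2(RPM + 1) scale, HuCCT1/CD90+ minus HuCCT1/CD90-) of the 66 other Notch pathway genes, each drawn once in a row for its role and ordered by value within it. Filled points passed an adjusted p of 0.05 in limma (red higher, blue lower) and up to 4 per role are named; TLE4 at -3.48 lies apart from the rest, which range from -1.04 to 1.12.

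**Figure D4:**
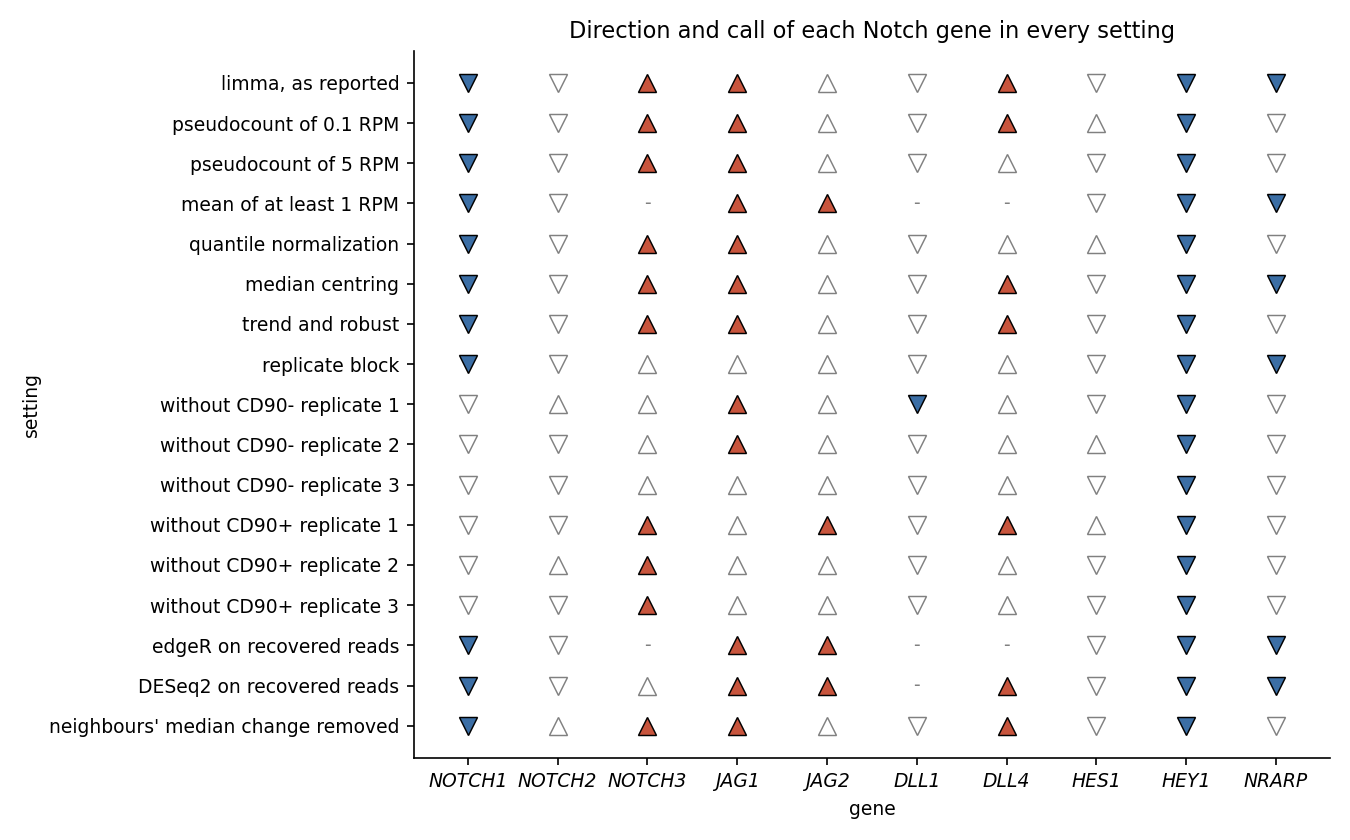
Direction (triangle up, higher in HuCCT1/CD90+; triangle down, lower) and call (filled, adjusted p of at most 0.05) of each of the 10 Notch genes (x axis) in limma as reported and in 16 alternatives (y axis); a dash marks a gene that a setting did not test. HEY1 is filled in every row, NOTCH1 in 10 of the 16 alternatives, JAG1 in 11 and NRARP in 5, while NOTCH2 and HES1 are open in every row and change direction between rows.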

How the data were processed

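Total RNA (3 libraries of each line) was converted to AmpliSeq libraries and run on the Ion GeneStudio S5 Prime system. Reads per amplicon were obtained by the authors through the ampliSeqRNA plugin, and the deposited table gives RPM for 20811 genes, low values included. The submitters' processing notes name hg19. Amplicon positions are not given in the sources used here, so GENCODE 29 coordinates describe genes, not amplicons. Strand use in counting is not stated, so reads of NOTCH1, JAG1 and DLL1 and of opposite-strand genes that overlap them cannot be told apart. JAG2 and DLL1 also overlap AL512356.1 and AL078605.1 on their own strand, where strand use would not separate the reads.

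Values were whole multiples of what 1 read is worth, within 0.1 reads, for 100% of values, which gave recovered reads and library totals. Log2(RPM + 1) values were tested with limma 3.58.1 in R 4.3.3 (lmFit and eBayes, all genes). On this scale, changes of weakly expressed genes come out too small. No pair of libraries agreed within sampling noise. Same-numbered libraries deviated together (r = 0.21, 0.32 and 0.18 for replicates 1, 2 and 3, and -0.29 to 0.07 for other pairs). Each deviation was taken from the mean of its own line, so the 2 kinds of pair are not independent. The labels do not say what the numbers mark, so pairing by number was taken as possible, not settled. The reported fit has no block, and 1 alternative blocked on the replicate number. The calls of JAG1, DLL4 and NOTCH3 depended on this choice. Others were pseudocounts of 0.1 and 5 RPM, a mean of at least 1 RPM, quantile normalization, median centring, trend and robust settings, each library left out, edgeR 4.0.16 (quasi-likelihood, TMM, filterByExpr, 12070 genes, of which 5357 were called) and DESeq2 1.42.0 on recovered reads (14399 genes with an adjusted p, of which 5326 were called), and removal of the median change of the 50 nearest genes. The code was tested on simulated data. The members and lists were chosen with earlier results of these data known. Genes named are the 10 members and, per role, the 4 passing genes with the largest change, other genes of the list being named where they did not pass, and NUMB, NUMBL, NEURL, TLE2 and NOTCH2NL after their values were seen. Promoters are from RefSeq. Some listed genes are not reported here.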

Additional observations from a re-analysis of the deposited data

How the results depend on the processing

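Limits include the 3 libraries per line and the few reads of DLL4, HEY1, NOTCH3 and DLL1. Of the 10 Notch genes, 6 passed in limma as reported, 3 with the replicate block (NOTCH1, HEY1 and NRARP, against 13.1% of all genes), 5 of 7 tested with edgeR (against 44.4%) and 6 of 9 with DESeq2 (against 37%). Leaving out single libraries left 1 to 4 of them, with 1 without HuCCT1/CD90- replicate 3, 2 without HuCCT1/CD90- replicate 2 or HuCCT1/CD90+ replicate 2 or 3, and 3 without HuCCT1/CD90- replicate 1. At the thresholds of the study, with the fold on the log2 scale of each fit, 4 genes passed, 2 with a pseudocount of 5 RPM and 3 to 5 in the remaining settings. Of the 66 further pathway genes, 16 passed, and 8 to 12 without a single library, with 9 without HuCCT1/CD90+ replicate 1 and 8 without HuCCT1/CD90+ replicate 3. Over all genes, 3939 passed, and 2197 to 2932 without a single library, the lowest without HuCCT1/CD90+ replicate 3. Without each library in turn, LFNG, NCSTN, DTX3L, TLE4 and CCND1 kept their calls, NOTCH1, NRARP and FBXW7 lost theirs in each of the 6 fits, and ADAM10, DTX2, DTX4, KAT2A, KAT2B and TLE3 in some. DLL4 and NRARP also lost their calls with a pseudocount of 5 RPM or quantile normalization, and NRARP with a pseudocount of 0.1 RPM, trend and robust settings or the neighbours' change removed.

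Direction changed only for genes that did not pass. HES1 had a log2 fold change of 0.0011 with a pseudocount of 0.1 RPM and 0.051 with quantile normalization, and -0.30 to 0.31 without a single library. NOTCH2 had 0.26 with the neighbours' median change removed and -0.056 to 0.031 without a single library. The replicate block ended the calls of NOTCH3, JAG1 and DLL4 and, among the pathway genes named, of LFNG, DTX2, DTX4, FBXW7, NUMB, NEURL and KAT2A, brought in APH1B and MYC (adjusted p = 0.039 and 0.037, limma), and changed no other call among the Notch pathway genes named. Of the markers, KRT19 and COL1A2 also lost their calls with it (adjusted p = 0.14 and 0.090, limma). The cause of these changes was not tested.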
